A study of Mus musculus with 6 samples.

Results

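Inflammasome and pyroptosis genes were followed in RNA sequencing of the RAW264.7 line, macrophage-like cells from mouse ascites that turn into osteoclasts when given RANKL. The 10 genes were taken by symbol from 55291 rows: the sensors Nlrp3, Nlrp1b, Naip5 and Nlrc4, the adaptor gene Pycard, the caspases Casp1 and Casp4, the pore gene Gsdmd and the cytokines Il1b and Il18. The shCtrl group (n = 3, genotype label WT) carried a control hairpin, and the shUSP8 group (n = 3, label USP8 Knock Down) a hairpin against Usp8, which encodes an endosomal deubiquitinase. RANKL was given to both groups (50 ng/mL, 4 days), so both were in osteoclast-forming conditions, and no culture without RANKL was analysed here. Whether a group is a clone or a pool, and whether its libraries are separate cultures, is not given in the sources used here. The p-values therefore set the difference between groups only against the spread of these libraries within a group, and that spread may be technical.

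Inflammasomes are complexes that assemble in the cytosol when a sensor meets a microbial product or a sign of damage. The sensor recruits caspase-1, directly or through the adaptor ASC (the product of Pycard). The caspase then cleaves the precursors of interleukin-1 beta and interleukin-18 and cuts gasdermin D, whose fragment forms pores in the plasma membrane and leads to lytic death, called pyroptosis. Caspase-11, encoded by Casp4 in the mouse, senses cytosolic lipopolysaccharide and also cuts gasdermin D. RAW264.7 cells are reported to lack ASC. RNA levels do not show whether any of these proteins was cleaved or active.

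Libraries held 19973522 to 20213939 expected counts. Usp8 itself stood at 2785, 2561 and 2645 counts in shCtrl and at 656, 720 and 718 in shUSP8, or -2.0 on the log2 scale with an SE of 0.06 (edgeR adjusted p = 1.47e-10), which checks the group labels. The mean sequenced fragment was estimated at 368.2 nt in shUSP8_2, against 291.7 to 309.2 nt in the other libraries. Results are therefore also given without shUSP8_2 where it matters. Macrophage and osteoclast markers were abundant in every library. The summed TPM (a level per transcript length, scaled to the same total in every library) of 8 macrophage markers was 4004 to 4306 in shCtrl and 6083 to 6702 in shUSP8. For 10 osteoclast markers it was 9986 to 10861 and 9453 to 9795. For 10 neutrophil markers it was 6.08 to 7.92 and 15.8 to 17.4, with Elane, Ly6g, Camp and Ltf at 0 in all libraries. For 10 lymphocyte markers it was 1.58 to 2.41 and 3.17 to 4.17, with 7 of the 10 at 0 throughout, and for 9 epithelial and stromal markers 2.72 to 3.64 and 2.85 to 4.67. The macrophage, neutrophil and lymphocyte sums were thus higher in shUSP8, the same direction as the members that rose below. The osteoclast sum was lower. Of the 10 osteoclast markers 5 were called lower and 0 higher, beside 14.9% and 17.8% of all tested genes. Ctsk lost its call in 13 of 16 alternatives. The part of these marker shifts in the members' results was not tested. Single markers did not all move with their sum. Lyz2, a lysozyme gene, made up most of the macrophage rise (939.1 to 3277 TPM). In all, 6 of the 8 macrophage markers were called higher, beside 17.8% of all tested genes. Cd68 (2234 to 1923 TPM) and Csf1r (771.4 to 715.9 TPM) were called lower, and Csf1r lost its call in 7 of 16 alternatives. Of the 10 neutrophil markers 3 were tested and all 3 were called higher, against 17.8% of all tested genes. Among these, S100a8 had 5 to 18 counts and lost its call in 8 of 16 alternatives. The lymphocyte sum was nearly all Lck (1.90 to 3.68 TPM). In a bulk sample, more cells of a type and more RNA per cell cannot be told apart.

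In shUSP8, 5 of the 10 genes were higher than in shCtrl: Nlrc4 (3.10-fold), Casp1 (2.82-fold), Nlrp1b (2.28-fold), Naip5 (1.89-fold) and Il18 (1.54-fold). The Il18 call was lost in 8 of 16 alternatives, 5 of them fits with 1 library left out, while the other 4 calls held in all 16. No member was called lower. Nlrp3, Casp4 and Gsdmd did not pass the test, and Pycard and Il1b had too few counts to be tested. Across the 12440 genes tested, 17.8% were called higher and 14.9% lower, together 32.8% (edgeR quasi-likelihood test, Benjamini-Hochberg adjusted p under 0.05), and 4.48% were called higher by at least 2-fold, as were 3 of the members. The median log2 fold change was 0.77 over the 8 tested members and -0.0049 over all tested genes. All 8 tested members reached the count filter in both groups, so for these a rise was not a condition of testing. In 7 of them every shUSP8 library lay above every shCtrl library in CPM (counts scaled by library size), which was so for 24.6% of all tested genes. In no tested member did all shUSP8 libraries lie below all shCtrl libraries, as was so for 23.1% of the tested genes. No member was undetected in the sense of 0 counts in all libraries. Pycard, at 1 to 3 counts in every library, was the nearest to it.

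**Figure D1:**
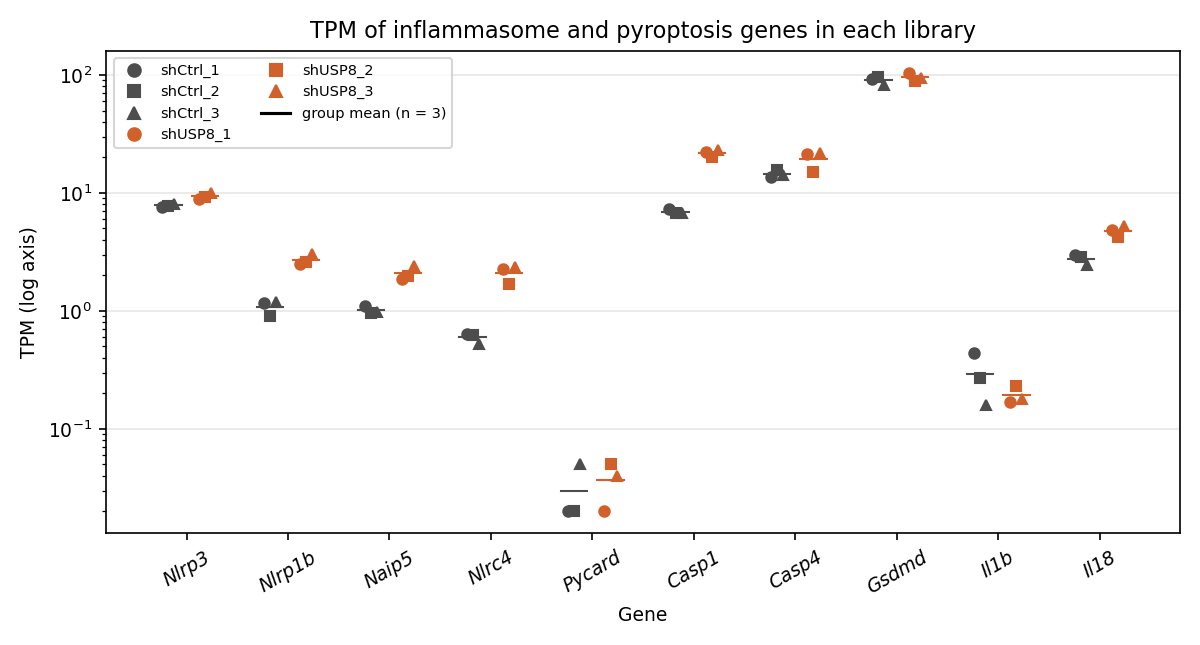
TPM (log axis) of the 10 genes in each of the 6 libraries, with grey symbols for shCtrl, orange symbols for shUSP8 and a line for each group mean (n = 3). Gsdmd lies near 100 TPM in both groups, Pycard near 0.03 TPM, and the orange symbols of Casp1, Nlrc4, Nlrp1b, Naip5 and Il18 all lie above the grey ones.

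The levels spanned more than 3 orders of magnitude. In shCtrl the order by mean TPM was Gsdmd (90.1 ± 7.38, SD, n = 3), Casp4 (14.5 ± 1.05), Nlrp3 (7.84 ± 0.211), Casp1 (6.94 ± 0.302), Il18 (2.75 ± 0.280), Nlrp1b (1.09 ± 0.165), Naip5 (1.02 ± 0.0814), Nlrc4 (0.597 ± 0.0666), Il1b (0.290 ± 0.141) and Pycard (0.030 ± 0.0173). Of the neighbours in this order, Nlrp1b and Naip5 overlapped between libraries, and the other pairs did not. In shUSP8 Casp1 (21.8 ± 1.63 TPM) stood in second place beside Casp4 (19.5 ± 3.86 TPM), and their libraries overlapped. Nlrc4 (2.11 ± 0.358 TPM) and Naip5 (2.09 ± 0.293 TPM) overlapped there as well. Gsdmd alone made up 71.9% ± 1.24 of the summed TPM of the 10 genes in shCtrl and 60.6% ± 2.25 in shUSP8 (exact permutation test, two-sided, p = 0.1; groups of 3 cannot give a smaller one).

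Among the sensors, Nlrc4 had the largest change of all members. It encodes the hub of an inflammasome that responds to bacterial flagellin and type III secretion proteins after a NAIP protein has bound them. The shCtrl libraries held 36, 46 and 36 expected counts of it and the shUSP8 libraries 138, 111 and 135. Every shUSP8 library held more than 2 times the count of any shCtrl library. The level rose from 2.00 ± 0.279 to 6.23 ± 0.757 CPM (mean ± SD of 3 libraries each), which is 1.63 on the log2 scale with an SE of 0.16 (edgeR adjusted p = 8.45e-06). On log2(TPM + 1), which understates changes of genes at such low levels, the value was 0.96 with the call kept. The gene lies on chromosome 17 at 74425438 to 74459142, minus strand (GRCm38).

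Naip5, the receptor that binds flagellin and activates Nlrc4, was counted 93.94, 83 and 86.42 times in the shCtrl libraries and 156.86, 169.97 and 192.56 times in the shUSP8 libraries. The groups did not overlap, and the level rose from 4.47 ± 0.281 to 8.42 ± 0.894 CPM (0.92 on the log2 scale, SE 0.12, edgeR adjusted p = 9.96e-05). Naip5 (chromosome 13, 100211739 to 100246323) was the sole member with counts that were not whole, in 5 of 6 libraries. RSEM divides reads that fit several genes, and the Naip genes beside it are near copies, so the split between them is uncertain. Naip2, which detects a rod protein of secretion systems, rose from 23.2 ± 0.609 to 34.3 ± 2.72 CPM (0.56 on the log2 scale, SE 0.07, adjusted p = 8.78e-05). Naip6, another flagellin receptor, was at 0.14 (SE 0.15, adjusted p = 0.493), and Naip1, named although it was not tested, had 1.00 to 10.29 counts. Summing the 4 Naip genes removes the split among them, but most of that sum is Naip2. The sum was 34.8 ± 1.65 CPM in shCtrl and 50.8 ± 1.19 CPM in shUSP8, with no overlap (exact permutation p = 0.1, the smallest possible). Naip5 took 12.9% ± 0.589 of these counts in shCtrl and 16.6% ± 1.64 in shUSP8, again without overlap. The ratio of Naip5 to Nlrc4, in TPM, was 1.73, 1.52 and 1.88 in shCtrl and 0.824, 1.16 and 1.03 in shUSP8, so Naip5 exceeded Nlrc4 in every shCtrl library and lay on both sides of it in shUSP8. These sums and ratios were chosen after the values had been seen.

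Nlrp1b encodes a sensor that is set off when its N-terminal part is degraded, for instance after cleavage by anthrax lethal factor. Its counts were 77, 61 and 83 in shCtrl and 165, 174 and 189 in shUSP8. The lowest shUSP8 library was at about 2 times the highest shCtrl library. The level rose from 3.76 ± 0.616 to 8.56 ± 0.605 CPM (1.19 on the log2 scale, SE 0.13, edgeR adjusted p = 2.93e-05). Its near copy Nlrp1a, named although it was not tested, had 0 or 1 count in each library. Dpp8 and Dpp9, proteases that hold Nlrp1b inactive, were at 0.11 (SE 0.06, adjusted p = 0.162) and 0.10 (SE 0.06, adjusted p = 0.195). Both passed with library totals, at 0.18 (0.0313) and 0.17 (0.0415), and Dpp8 also without shUSP8_1 (0.16, adjusted p = 0.0205) and on log2(TPM + 1) (0.26, adjusted p = 0.03).

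Nlrp3, the sensor of potassium efflux and membrane damage, had the highest TPM of the 4 sensors among the members and did not pass the test. Its counts were 481, 487 and 475 in shCtrl and 553, 547 and 521 in shUSP8. The groups did not overlap, but by a small margin, and shCtrl stood at 24.5 ± 0.132 CPM against 26.3 ± 0.781 CPM for shUSP8 (0.10 on the log2 scale, SE 0.06, adjusted p = 0.24). The value was 0.17 (edgeR adjusted p = 0.05) when libraries were scaled by their totals alone, where the median of all tested genes was 0.07. Over all alternatives the Nlrp3 value ranged from 0.08 to 0.26 (adjusted p from 0.05 to 0.572).

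**Figure D2:**
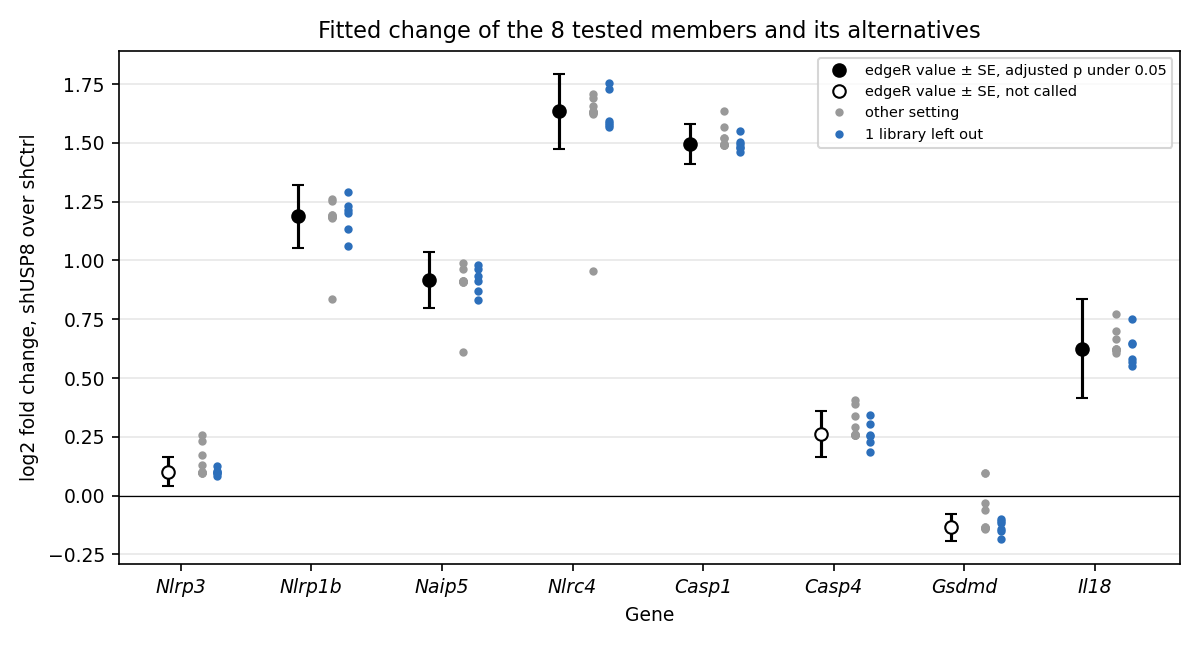
Fitted log2 fold change (shUSP8 over shCtrl) of the 8 tested members: black symbols with bars show the edgeR value ± SE, filled where the adjusted p was under 0.05 and open otherwise, grey points other settings and blue points fits with 1 library left out. Nlrc4, Casp1, Nlrp1b, Naip5 and Il18 lie above 0 in all fits shown, and Gsdmd lies on both sides of 0.

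Of 12 listed sensors outside the 10 genes, 6 were tested, of which Naip2 was higher and Ifi213 lower (median log2 fold change 0.04). Across all tested genes, 17.8% were called higher and 14.9% lower. Aim2, the receptor for cytosolic DNA, was at 39.0 ± 0.780 and 37.1 ± 1.14 CPM (log2 fold change -0.07, adjusted p = 0.394), and its value was 0.26 on log2(TPM + 1). Nlrp10 (-0.07, adjusted p = 0.474; 0.05 on log2(TPM + 1)) and Mefv, the pyrin gene (0.28, adjusted p = 0.492), did not pass the test either. Ifi213, which RefSeq lists as Pydc4 and which belongs to a family of near-identical interferon-inducible genes, fell from 25.3 ± 0.678 to 13.4 ± 1.12 CPM (-0.92 on the log2 scale, SE 0.08, adjusted p = 2.50e-06). Its reads were partly shared with copies.

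Pycard, the adaptor gene, was at the edge of detection. Its counts were 1, 1 and 3 in shCtrl and 1, 3 and 2 in shUSP8, and the groups overlapped. The 11 counts over the 6 libraries amounted to 0.0912 CPM, with an exact Poisson 95% interval of 0.0455 to 0.163 CPM that covers counting error only. In a single library, 3 counts correspond to 0.145 to 0.155 CPM, so no fold change is given. Pycard TPM was 0.02 to 0.05, values rounded to 2 decimals in the deposited table, against 6.71 to 23.31 TPM for Casp1. The gene lies on chromosome 7 at 127989708 to 127993867. In RefSeq order it is followed by Trim72, with 1 to 15 counts, and then by Itgam, an integrin gene of macrophages, with 40.2 ± 0.374 TPM in shCtrl. Low counts were thus shared by Trim72 and not by Itgam.

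Casp1, the caspase that all these sensors feed into, rose with little spread. Its counts were 157, 153 and 152 in shCtrl and 475, 423 and 467 in shUSP8. The shUSP8 libraries all lay far above the shCtrl libraries, and the level went from 7.84 ± 0.109 to 22.1 ± 1.5 CPM (1.5 on the log2 scale, SE 0.08, edgeR adjusted p = 6.05e-08). The call held under all 16 alternatives, with values from 1.46 to 1.64. Casp4, the next gene on chromosome 9, starts 1562 bases after the end of Casp1 in GENCODE and did not pass the test. Its counts were 233, 242 and 253 in shCtrl and 307, 272 and 336 in shUSP8. These do not overlap, but shUSP8_2 lay close to the shCtrl libraries (12.4 ± 0.649 against 14.8 ± 1.64 CPM, log2 fold change 0.26, SE 0.10, adjusted p = 0.0556). Without shUSP8_2 the value was 0.34 with an adjusted p of 0.0127, and over all alternatives the adjusted p ranged from 0.0127 to 0.21. In TPM, Casp4 stood at 13.68, 15.7 and 14.19 in shCtrl and at 21.55, 15.09 and 21.98 in shUSP8, so shUSP8_2 fell within the shCtrl range. Casp12, the following gene, had a single count in 1 library.

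The balance of the neighbouring caspases shifted towards Casp1. The TPM ratio of Casp1 to Casp4 was 0.532, 0.434 and 0.473 in shCtrl and 1.02, 1.33 and 1.06 in shUSP8. Casp4 thus exceeded Casp1 in every shCtrl library and lay below it in every shUSP8 library, though only just in shUSP8_1 and shUSP8_3. The difference of means was 0.658 (exact permutation p = 0.1, the smallest possible). In CPM, which is not per length, the ratio was 0.636 ± 0.0366 and 1.497 ± 0.0932. This ratio was chosen after the values had been seen.

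RefSeq promoter windows (GRCm38.p6, 250 bases before to 50 after the start) were matched for 9 of the 10 members, 12 windows in all. A single window per gene is shown. The genes are the neighbouring caspases, of which only Casp1 was called, and Nlrc4 and Nlrp1b, the sensors with the largest rises. Capitals mark matches, on either strand, to any of 6 motifs: GAAA, any 2 bases, GAAA (interferon-stimulated response element), GGAA, any 2 bases, GAAA (PU.1 and IRF composite), TTCNNNGAA (STAT site), GGG, any 3 bases, TTCC (NF-kB), GAGGAAGT (PU.1) and TGANTCA (AP-1).
Casp1 promoter, chr9:5298267-5298566, plus strand: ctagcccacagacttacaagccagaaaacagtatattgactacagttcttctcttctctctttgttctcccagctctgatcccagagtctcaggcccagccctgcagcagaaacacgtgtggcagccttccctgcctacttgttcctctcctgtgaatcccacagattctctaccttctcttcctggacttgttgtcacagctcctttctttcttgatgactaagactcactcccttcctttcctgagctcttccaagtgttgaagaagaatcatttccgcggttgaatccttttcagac
Casp4 promoter, chr9:5308599-5308898, plus strand: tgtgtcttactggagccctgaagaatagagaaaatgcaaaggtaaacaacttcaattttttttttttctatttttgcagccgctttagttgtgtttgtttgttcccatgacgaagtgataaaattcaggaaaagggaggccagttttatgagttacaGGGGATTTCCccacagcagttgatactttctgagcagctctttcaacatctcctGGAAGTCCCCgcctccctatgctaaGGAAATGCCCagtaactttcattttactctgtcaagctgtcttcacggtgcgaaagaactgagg
Nlrc4 promoter, chr17:74459059-74459358, minus strand: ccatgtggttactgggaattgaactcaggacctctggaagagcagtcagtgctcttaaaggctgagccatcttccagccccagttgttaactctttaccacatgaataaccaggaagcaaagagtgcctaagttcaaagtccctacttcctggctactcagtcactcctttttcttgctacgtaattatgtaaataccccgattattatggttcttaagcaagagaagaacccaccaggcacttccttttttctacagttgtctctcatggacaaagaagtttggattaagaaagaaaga
Nlrp1b promoter, chr11:71230684-71230983, minus strand: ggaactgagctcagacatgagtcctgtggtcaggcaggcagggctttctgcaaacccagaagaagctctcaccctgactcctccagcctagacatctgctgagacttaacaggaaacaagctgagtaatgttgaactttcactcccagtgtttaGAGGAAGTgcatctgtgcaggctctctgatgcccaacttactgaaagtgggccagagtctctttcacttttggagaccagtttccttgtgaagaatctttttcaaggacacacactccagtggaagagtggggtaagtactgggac
The Casp4 window shown held 3 NF-kB matches, at -93 on the gene's strand and at -39 and -14 on the opposite strand, counted from the start site. From the start of another Casp4 window the same matches lay at -104, -50 and -25. An NF-kB match was present in 5.56% of all 32851 windows. The Nlrp1b window shown held a PU.1 match at -96, as 3.20% of all windows did. Another Nlrp1b window held none of the 6 motifs. The Pycard window held a PU.1 match at -44. The Casp1, Nlrc4, Naip5 and Il18 windows held none of the 6 motifs. The response element was present in 3.44% of all windows, the composite in 2.72%, the STAT site in 8.30% and the AP-1 site in 7.81%, and in none of the members' windows. Matches are letters in a window, not evidence of binding, and the starts used in these cells were not measured.

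Gsdmd, the executioner, was the most abundant member and did not pass the test. Its counts were 1584, 1686 and 1574 in shCtrl and 1644, 1517 and 1463 in shUSP8. The groups overlapped (82.2 ± 2.62 and 75.0 ± 4.65 CPM, log2 fold change -0.13, SE 0.06, adjusted p = 0.0941). The value turned to 0.10 on log2(TPM + 1) and on log2(TPM + 0.1), scales on which the median of all genes itself lay 0.11 and 0.13 higher in shUSP8. It passed without shUSP8_1 (-0.18, adjusted p = 0.0124), and its adjusted p ranged from 0.0124 to 0.83 over all alternatives.

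Genes acting at and after the pore had a mixed record. Of 14 listed caspases, gasdermins and membrane genes beyond the members, 11 were tested, 3 of them higher and 1 lower (median log2 fold change -0.05). For all tested genes the shares were 17.8% higher and 14.9% lower. Ninj1, whose product ruptures the plasma membrane after pore formation, rose from 114.6 ± 4.67 to 181.0 ± 10.4 CPM (0.66 on the log2 scale, SE 0.06, adjusted p = 2.70e-06). Its TPM of 146.4 in shCtrl and 256.1 in shUSP8 was above that of Gsdmd. Gsdme, a gasdermin cut by caspase-3, rose by 0.58 (SE 0.15, adjusted p = 0.00919), a call lost in DESeq2 (adjusted p = 0.0753). Chmp3, of the ESCRT machinery that repairs pores, fell by 0.19, and this call was lost without shCtrl_2 (adjusted p = 0.0523), with library totals (0.0981) and with effective-length offsets (0.405). Its value was 0.03 on log2(TPM + 1). Casp8, which can cleave gasdermin D, was at -0.12 (adjusted p = 0.13), and at -0.18 without shCtrl_3 (0.0384).

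The cytokines had little RNA in both groups. Il18 counts were 28, 28 and 25 in shCtrl and 47, 36 and 48 in shUSP8. The groups did not overlap, and the level went from 1.37 ± 0.0719 to 2.13 ± 0.336 CPM (0.63 on the log2 scale, SE 0.21, adjusted p = 0.0395). Leaving out shCtrl_1 ended the call (adjusted p = 0.0874), as did leaving out shCtrl_2 (0.0965), shCtrl_3 (0.111), shUSP8_1 (0.0822) or shUSP8_3 (0.128). It was also lost in DESeq2 (0.234), without the count filter (0.0697) and with the replicate number as a block (0.0666), while the value stayed between 0.55 and 0.77. Il1b counts were 8, 5 and 3 in shCtrl and 3, 4 and 3 in shUSP8. The groups overlapped, and summed over each group they came to 0.272 CPM (exact Poisson 95% interval 0.155 to 0.441) and 0.162 CPM (0.0777 to 0.298). A difference in Il1b was not detectable at this depth.

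By contrast, the gene of the interleukin-1 receptor antagonist, Il1rn, was expressed about 3 orders of magnitude above Il1b. Its TPM was 656.23, 638.91 and 640.84 in shCtrl and 954.11, 1034.59 and 1018.74 in shUSP8, against 0.16 to 0.44 for Il1b. The groups did not overlap, and Il1rn rose by 0.52 (SE 0.05, adjusted p = 1.43e-05), from 558.4 ± 25.3 to 801.9 ± 22.6 CPM. Il18bp, the soluble inhibitor of interleukin-18, rose from 0.681 ± 0.173 to 1.33 ± 0.320 CPM (0.96 on the log2 scale, SE 0.30, adjusted p = 0.0274). That call was lost in DESeq2 (adjusted p = 0.161) and without shCtrl_1 (0.106), shCtrl_2 (0.102), shUSP8_1 (0.0713) or shUSP8_3 (0.0942).

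Of 24 listed interleukin-1 family ligands, receptors, inhibitors and signal carriers, 22 were found in the table and 14 tested. Among these, 7 were higher and none lower (median log2 fold change 0.29), beside 17.8% and 14.9% of all tested genes. Il1f9, the gene of the ligand interleukin-36 gamma, had 3, 2 and 0 counts in shCtrl and 108, 82 and 85 in shUSP8 (adjusted p = 3.79e-07). It reached the count filter in shUSP8 alone. So did Il18rap, an interleukin-18 receptor chain, with 4, 3 and 1 against 11, 14 and 16 counts (edgeR adjusted p = 0.00283, and 0.0633 on log2(TPM + 1)). For Il1f9 and Il18rap only a higher level in shUSP8 led to a test, so the list's count and median rest partly on the filter. Il1a (below) had 13.74, 13 and 8 counts in shCtrl and 24, 15 and 24 in shUSP8. Of these libraries, shCtrl_3 alone lay under the filter's level. Irak3, a kinase-dead brake on interleukin-1 and Toll-like receptor signals, rose from 2.48 ± 0.0906 to 7.08 ± 0.386 CPM (1.51 on the log2 scale, SE 0.12, adjusted p = 1.89e-06). Il1rap, the shared receptor chain, rose by 0.35 (adjusted p = 0.00683; 0.073 with effective-length offsets). Myd88, the common adaptor, rose by 0.23, a call lost without shCtrl_2 (adjusted p = 0.0601), shCtrl_3 (0.0944) or shUSP8_3 (0.0501), in DESeq2 (0.0724) and with effective-length offsets (0.0617). Il1a, at 0.78 (adjusted p = 0.085), passed without shUSP8_2 (0.0405). Il1r2, Il33, Il18r1, Il1rl2, Il1f6, Il1f8 and Il1f10 had 0 counts in all libraries, and Il1r1 had 1 to 5.

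**Figure D3:**
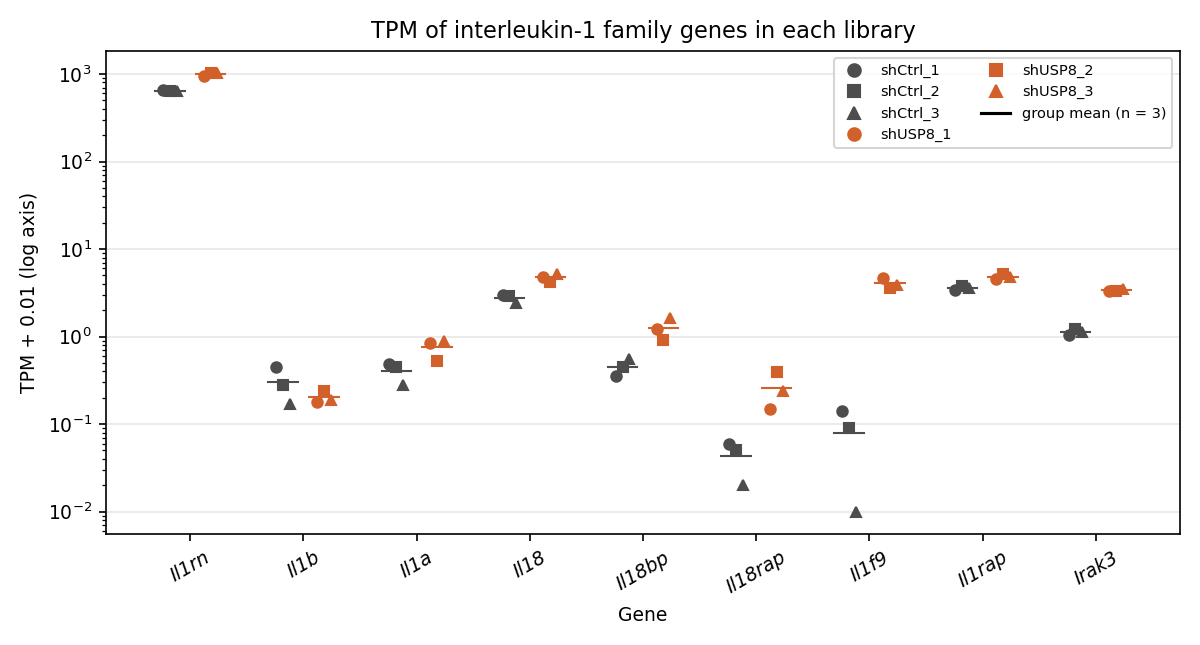
TPM + 0.01 (log axis) of 9 interleukin-1 family genes in each library, grey for shCtrl, orange for shUSP8, with a line for each group mean (n = 3). Il1rn lies between 638.91 and 1034.59 TPM in all libraries, Il1b below 0.5 TPM, and Il1f9 is near the bottom of the plot in shCtrl and near 4 TPM in shUSP8.

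Triggers and regulators of inflammasomes were tested for all 21 listed genes, 7 of which were higher and 3 lower (median log2 fold change 0.10). Over all tested genes, 17.8% were called higher and 14.9% lower. Panx1, a channel that releases ATP, rose from 10.1 ± 0.379 to 27.1 ± 0.909 CPM (1.42 on the log2 scale, SE 0.07, adjusted p = 2.31e-08). P2rx7, the ATP-gated channel upstream of Nlrp3, was at 22.2 and 22.1 CPM (log2 fold change -0.01, adjusted p = 0.905; 0.06 with library totals). Trim30a, an interferon-induced brake on Nlrp3, rose from 4.29 ± 0.375 to 19.0 ± 2.51 CPM (2.14 on the log2 scale, SE 0.12, adjusted p = 5.32e-08), with a few reads shared with near copies. Serpinb1a, an inhibitor of inflammatory caspases and neutrophil proteases, rose by 0.65 (SE 0.12, adjusted p = 0.00338). Irf8, a transcription factor known to be needed for Naip and Nlrc4 expression in macrophages, was counted 369, 367 and 368 times in shCtrl libraries, against 768, 757 and 747 times in shUSP8 libraries (0.97 on the log2 scale, SE 0.06, adjusted p = 1.50e-07). Its groups were widely apart and showed almost no spread. Irf1 rose by 0.56 (adjusted p = 6.29e-04). Irf2, known to drive Gsdmd, was at 0.24 (adjusted p = 0.0271), a call lost without shCtrl_1 (0.0812), shCtrl_3 (0.103) or shUSP8_1 (0.0637), in DESeq2 (0.0945), on log2(TPM + 1) (0.057) and with effective-length offsets (0.2). Card19 was at 0.25 (adjusted p = 0.0345), a call lost without any 1 of 4 libraries, shCtrl_1 (0.0917), shCtrl_2 (0.118), shCtrl_3 (0.0926) and shUSP8_3 (0.0712).

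Among those that were lower, Ptpn22, a phosphatase that acts on Nlrp3, fell from 291.1 ± 5.06 to 199.5 ± 3.41 CPM (-0.55 on the log2 scale, SE 0.05, adjusted p = 2.62e-06). Nek7, the kinase that Nlrp3 needs to assemble, fell by 0.21 (SE 0.06, adjusted p = 0.014). That call was lost without shCtrl_3 (adjusted p = 0.0655), with library totals (0.0801) and on log2(TPM + 1) (0.415). Hsp90ab1, a chaperone of these sensors, was at -0.17 (adjusted p = 0.0232) and lost its call in 8 of 16 alternatives, among them without shCtrl_1 (0.0681), shCtrl_2 (0.0921) or shUSP8_3 (0.0757).

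Guanylate-binding proteins and immunity-related GTPases, interferon-induced factors that strip bacterial vacuoles and expose lipopolysaccharide to caspase-11, had low levels in shCtrl apart from Irgm1. Of 13 listed, 5 were tested and all 5 were higher (median log2 fold change 2.68), beside 17.8% of all tested genes. Gbp3 reached the filter in shUSP8 alone, so only a higher level there led to its test. Irgm1 rose from 8.33 ± 1.02 to 25.2 ± 1.67 CPM (1.60 on the log2 scale, SE 0.10, adjusted p = 1.16e-07). Irgm2 rose by 2.79 (SE 0.17), Igtp by 2.68 (SE 0.23) and Gbp7 by 2.40 (SE 0.20). Because these families include close copies, the division of reads among them is not certain. The summed TPM of the 13 genes was 6.08 to 7.59 in shCtrl and 26.5 to 30.3 in shUSP8, still below that of Gsdmd alone. Gbp2 and Gbp5, named although they were not tested, had 0 to 3 and 0 to 1 counts in shCtrl and 9 to 11 and 4 to 10 in shUSP8.

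**Figure D4:**
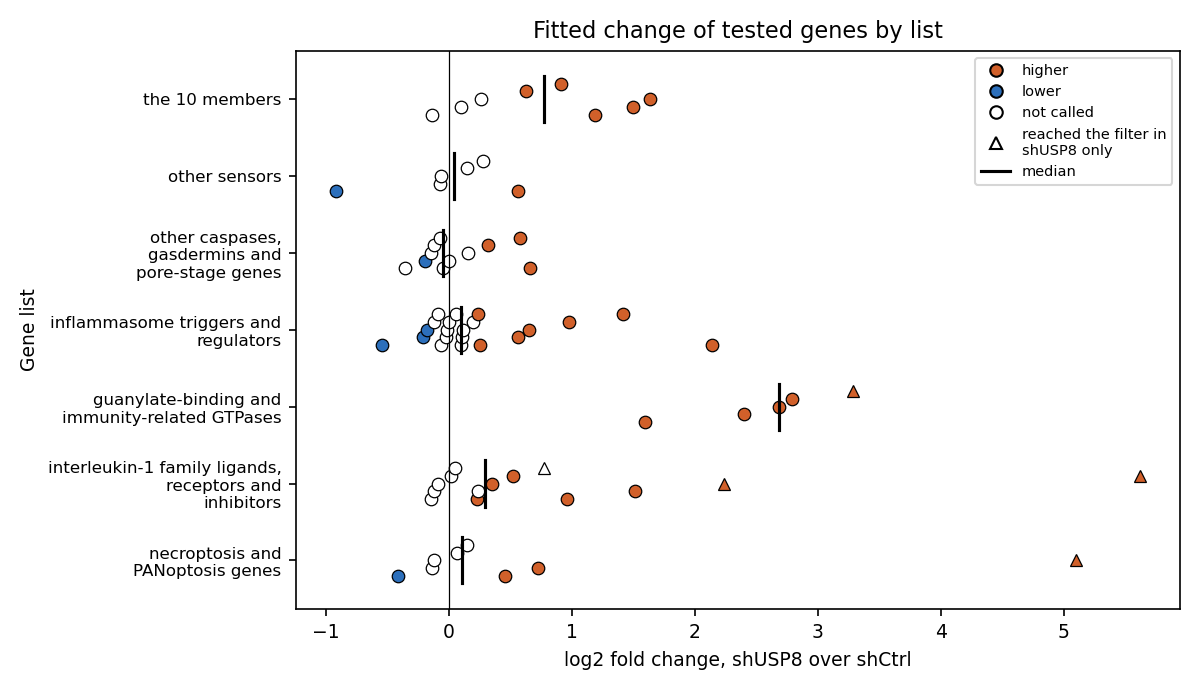
Fitted log2 fold change (shUSP8 over shCtrl) of the tested genes in each list. Orange marks genes called higher, blue those called lower and white those not called. Triangles mark genes at the count filter's level in every shUSP8 library but not in every shCtrl library, and bars mark the median. The members' median is 0.77, that of the GTPases 2.68 and those of the other lists lie between -0.05 and 0.29.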

How the data were processed

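The deposited tables hold expected counts and TPM for 55291 gene symbols in 6 libraries. Per the submitters' processing notes, RSEM, DESeq2 1.28.1 and mm10 were used by the authors, with no roles given; the aligner and annotation release are not given in the sources used here. The expected counts, as deposited, are estimated fragments per gene, and 7.16% are not whole. The TPM values, as deposited by the authors, are scaled for effective length and library size. Columns named WT were taken as shCtrl, and KO as shUSP8, the other genotype label, with numbers from the sample titles.

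Whole-number counts, after rounding, went into edgeR 4.0.16 (R 4.3.3). Genes were kept by filterByExpr with a minimum count of 10 and a minimum total of 15, libraries were scaled by TMM, and the quasi-likelihood F test was run with robust dispersion, Benjamini-Hochberg adjustment over 12440 genes and a threshold of 0.05. SE is the size of the log2 fold change over the root of F. CPM uses TMM factors. Total expected counts were 19973522 to 20213939 per library. Named genes were Usp8, all 10 members and any tested gene of 6 companion lists written from general knowledge. Names missing from the table were matched through RefSeq synonyms. Members and lists were chosen with earlier results of these data known. Effective-length offsets use expected count over TPM. Coordinates are from GENCODE M21 (GRCm38), which held the listed transcripts of every member except Casp1, matched by symbol. Fragment length was estimated from a line of expected count over TPM against transcript length in 645 single-transcript genes. Genes far from the line were dropped, which left 246 to 313 genes per library. In simulated data with 12440 genes, 50 were changed at each fold and the rest left unchanged. The pipeline recovered 12%, 78%, 88% and 100% of genes changed 1.2-, 1.5-, 2- and 4-fold, with 4.79% of calls false. In the real data 32.8% of genes were called, so these rates need not hold there. Alternatives used DESeq2 1.42.0 and limma 3.58.1. Some genes that enter the counts are not reported here by name.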

Additional observations from a re-analysis of the deposited data

How the results depend on the processing

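Nlrc4, Casp1, Nlrp1b and Naip5 kept direction and call under all 16 alternatives, and Usp8 did too. Il18 (0.63) lost its call at 0.62 without the filter, 0.62 with the replicate block and 0.625 in DESeq2, and lay at 0.55 to 0.75 with a library left out. Nlrp3 passed at 0.17 with library totals. Casp4 passed at 0.34 with library totals and 0.26 without the filter, and lay at 0.19 to 0.34 with a library left out. Gsdmd turned to 0.10 on log2(TPM + 1) and 0.10 on log2(TPM + 0.1), and lay at -0.18 to -0.10 with a library left out. Members called higher numbered 4 to 7, and lower 0 to 1. Leaving out shUSP8_1 gave the 1. The replicate block left 2021 genes higher and 1690 lower (2218 and 1859 without it); deviations of same-numbered libraries correlated at -0.0073, 0.078 and -0.054, so the numbers were not taken as pairs.

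Genes called lower numbered 1172 with library totals, 500 on log2(TPM + 1), 492 on log2(TPM + 0.1), 1226 with effective-length offsets and 1239 to 2077 with a library left out, fewest without shCtrl_2. The share of calls that were higher was 54.4%, against 72.6%, 82.6% and 82.9% with the first 3 of these. The median log2 fold change of all tested genes was -0.0049, against 0.069, 0.11 and 0.13 with the same 3. Of the other caspases and pore genes, DESeq2 called 1 higher (edgeR 3, and 2 to 4 under the other alternatives), and 0 were lower with library totals or log2(TPM + 0.1), or 0 to 2 with a library left out. Triggers called lower fell from 3 to 1 with library totals, 1 on log2(TPM + 1) and 1 on log2(TPM + 0.1). GTPases called higher numbered 9 without the filter. Interleukin-1 family genes called higher numbered 4 with offsets. Those called lower numbered 1 with upper-quartile factors, 1 without the filter and 0 to 1 with a library left out (Irak1, without shUSP8_2). Necroptosis genes called lower numbered 1 to 2 (Ripk1, without shUSP8_2). The causes were not tested. The planned ratios of Il1rn to Il1b and of Il18bp to Il18 were not run, since a gene of each was under 1 TPM. The Casp1 to Casp4 and Naip5 to Nlrc4 ratios, added after seeing the data, differed in the same direction with each library left out and in CPM. Depth limits Pycard and Il1b.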

Other observations

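Genes of necroptosis and PANoptosis, forms of lytic death that share parts with pyroptosis, were tested for all 8 listed members. Among these, 3 were higher and 1 lower (median log2 fold change 0.11), beside 17.8% and 14.9% of all tested genes. Zbp1, a sensor of Z-form nucleic acids, had 0, 2 and 2 counts in shCtrl and 59, 54 and 43 in shUSP8 (edgeR adjusted p = 2.99e-06), and it reached the count filter in shUSP8 alone. Ripk3, the kinase that Zbp1 engages, rose from 17.9 ± 0.949 to 29.6 ± 2.01 CPM (0.72 on the log2 scale, SE 0.07, adjusted p = 1.37e-05). Mlkl, the membrane-breaking target of that kinase, rose from 15.5 ± 0.126 to 21.3 ± 1.5 CPM (0.45 on the log2 scale, SE 0.08, adjusted p = 6.16e-04). Cflar, the inhibitor of caspase-8, fell from 204.7 ± 3.99 to 153.7 ± 8.19 CPM (-0.41 on the log2 scale, SE 0.05, adjusted p = 8.31e-05). The calls of Ripk3, Mlkl and Cflar were kept in all 16 alternatives. That of Zbp1 was kept in the 15 that tested it, but under the count filter only a higher level in shUSP8 led to its test. The list's count and median thus rest partly on the filter. Ripk1 was at -0.12 (adjusted p = 0.15; 0.0487 without shUSP8_2), and its value was 0.02 on log2(TPM + 1). Fadd was at 0.07 (adjusted p = 0.692; -0.07 without shUSP8_1).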
